A study of Mus musculus with 6 samples.

Results

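The calcium handling and contractile ion channel genes examined here were 9 mouse genes chosen by name: Cacna2d1, Cacna1c, Cacna1h, Kcnma1, Kcnmb1, Itpr1, Atp2a2, Trpc6 and Pln. They were measured by 14 probes, among 27229 probes that matched 20656 genes through their transcript accessions, and 7 of the 9 genes (11 probes) passed a filter on low signal, as did 15730 genes (20442 probes) in all. Trpc6 and Pln did not pass. RNA came from 3 biological replicates of E18.5 fetal mammary cells, sorted as CD31-CD45-Ter119-EpCAM++CD49f+, and 3 of adult basal mammary cells, gated as EpCAM+ CD49f+ BP-1- cells without CD31, CD45 or Ter119, from glands of 8–12-wk animals. Both populations came from female C57Bl6J mice that carried no engineered allele or treatment named in the labels, and each replicate was hybridized to its own Agilent one-color array, where spot brightness measures the labelled RNA bound by a probe. Adult glands were digested overnight and fetal glands for a much shorter time. The sort gates also differed, in EpCAM level and in the use of BP-1. Stage, digestion and gate therefore cannot be told apart, and the number of animals behind a replicate was not given in the sources used here. Between 76.8% and 83.3% of probes on the fetal arrays, and between 76.4% and 82.0% on the adult basal arrays, were well above background.

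Contraction of smooth muscle and of mammary myoepithelial cells is triggered by a rise in cytosolic calcium. Calcium enters through voltage-gated channels and TRP channels in the plasma membrane and is released from the endoplasmic reticulum by inositol trisphosphate receptors, and the SERCA pump returns it to that store. BK channels open when calcium and voltage rise and let potassium out, which limits the depolarization. In the adult gland the basal layer consists largely of myoepithelial cells, which contract in response to oxytocin at milk ejection.

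All values below are log2 normalized signals, and differences are fetal minus adult basal on that scale. A probe was called when its Holm-adjusted p in limma's test over all 20442 probes was at most 0.05 and its absolute log2 difference at least 1, which held for 11.1% of probes, 5.18% lower and 5.92% higher in fetal cells. A gene was counted by its brightest probe, and by that rule 5.21% of the 15730 genes tested were called lower in fetal cells and 6.03% were called higher. Cacna2d1, Kcnmb1 and Atp2a2 were called lower in fetal cells, Cacna1c, Cacna1h, Kcnma1 and Itpr1 were not called, and no member was called higher. The 9 genes were picked with earlier results of these arrays known, so that their 3 calls are not independent evidence about the group. In sorted populations measured in bulk, fewer cells of a type and less RNA per cell cannot be told apart.

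**Figure D1:**
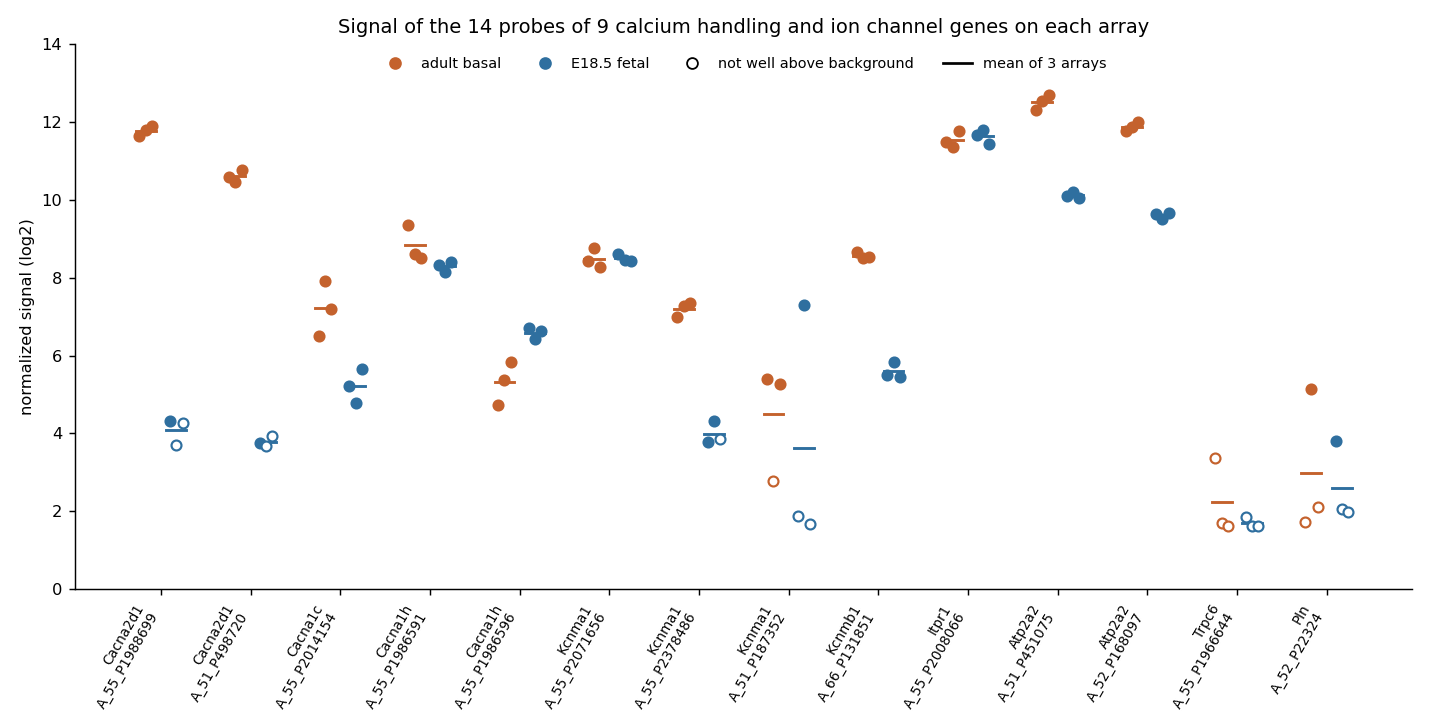
Normalized signal (log2, vertical axis) of each of the 14 probes of the 9 genes on the 3 adult basal and 3 E18.5 fetal arrays; each point is an array, open points were not well above background, and short lines are means of 3 arrays. The Cacna2d1, Kcnmb1 and Atp2a2 probes are well separated between populations, the Itpr1 probe overlaps, and every Trpc6 point is open.

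Genomic sequence upstream of the transcription start was given for 6 of the members, Cacna2d1, Cacna1c, Trpc6, Pln, Kcnmb1 and Kcnma1, in a RefSeq promoter table of build GRCm38.p6. Sequences are shown for the pair of called genes in that table, because their upstream regions differ in base composition, and for the single match to the CArG box, the element bound by serum response factor that lies near many smooth muscle genes. Over the 250 bases before the start, 82.4% of bases were G or C for Cacna2d1, with 36 CG dinucleotides, against 50.8% and 1 CG dinucleotide for Kcnmb1. The medians over all 32851 promoters in the table were 52.4% and 6. The CArG box (C, C, 6 bases that are each A or T, G, G; its reverse complement has the same form) was found in 1 of the 8 windows of 300 bases held for the members, that of Trpc6, where it ended 112 bases before the start, and in 1.63% of all promoters. These are matches of letters only, and nothing about binding was measured. Each sequence is on the plus strand and written 5′ to 3′, and capitals mark CG dinucleotides for Cacna2d1 (the last 30 bases before the start, chr5:15934661-15934690) and Kcnmb1 (192 bases that end before the first annotated transcript, chr11:33962763-33962954, where there are none) and the CArG box for Trpc6 (chr9:8544010-8544039):
Cacna2d1: CGccccctcCGccccCGcccCGccccCGcc
Kcnmb1: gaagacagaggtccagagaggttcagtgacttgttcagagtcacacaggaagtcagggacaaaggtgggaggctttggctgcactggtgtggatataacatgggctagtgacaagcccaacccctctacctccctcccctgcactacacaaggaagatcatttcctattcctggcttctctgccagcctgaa
Trpc6: cctttcgatcCCTTTAAAGGtggggatcgt

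Cacna2d1 encodes the alpha2delta-1 subunit, an extracellular auxiliary protein that raises the surface density of voltage-gated calcium channels. It had the largest difference of the 7 genes tested. Its brighter probe, A_55_P1988699, was at 11.65, 11.79 and 11.89 on the 3 adult basal arrays and at 4.32, 3.69 and 4.27 on the 3 fetal arrays. The groups lay far apart, and the fetal signal was well above background on only 1 of the 3 arrays. The means were 11.78 ± 0.12 (SD, n = 3) and 4.09 ± 0.35 (SD, n = 3), a log2 difference of -7.68 (SE 0.18, Holm-adjusted p = 1.5e-05 by limma). The second probe, A_51_P498720, was at 10.59, 10.46 and 10.77 on the adult basal arrays and at 3.75, 3.68 and 3.94 on the fetal arrays, of which 1 was well above background. It gave a log2 difference of -6.81 (SE 0.12, Holm-adjusted p = 2.3e-06). Both probes were thus close to background in fetal cells, and the size of the difference depended on how such signal is treated: with a normexp background correction the log2 differences were -5.55 and -4.34.

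Neither Cacna1c nor Cacna1h, the members that encode pore-forming subunits of voltage-gated calcium channels, was called. Cacna1c encodes the L-type channel Cav1.2, the main route of depolarization-driven calcium entry in smooth muscle. Its probe, A_55_P2014154, was at 6.51, 7.93 and 7.20 on the adult basal arrays and at 5.21, 4.77 and 5.66 on the fetal arrays. The groups did not overlap, with fetal cells lower, but the adult basal arrays spread over more than 1 log2 unit. The log2 difference was -2.0 (95% confidence interval from -2.87 to -1.13), and it did not pass Holm's adjustment (adjusted p = 1 by limma), although the Benjamini-Hochberg adjusted p was 0.0024. That adjustment, with the same minimum difference, called 29.7% of all genes tested, 13.9% lower and 15.8% higher in fetal cells, and 30% of probes. For comparison, fetal arrays lay wholly below adult basal arrays for 35.0% of all genes tested and wholly above them for 33.4%, and the members counted by their brightest probes were wholly below for 5 of 7 genes and wholly above for 0. Cacna2d1, Cacna1c and Kcnmb1 had fetal means of 4.09, 5.21 and 5.59, below the low-signal cutoff of 5.95. They passed the filter only through the adult basal arrays, where they are high, so no conclusion on direction is drawn from this count.

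Cacna1h encodes the T-type channel Cav3.2, which opens at more negative potentials. Its probes differed in direction. Probe A_55_P1986591 was at 9.36, 8.61 and 8.51 on the adult basal arrays and at 8.31, 8.15 and 8.41 on the fetal arrays, with a log2 difference of -0.54 (95% confidence interval from -1.07 to -0.01) that was -0.27 without adult basal replicate 1, the highest array. Every fetal array was below every adult basal array for this probe, as for 35% of all probes tested. Probe A_55_P1986596, designed on another transcript record of the gene, was at 4.73, 5.37 and 5.83 on the adult basal arrays and at 6.71, 6.41 and 6.64 on the fetal arrays. Here every fetal array was above every adult basal array, as for 34.1% of all probes tested, with a log2 difference of 1.28 (95% confidence interval from 0.66 to 1.89). With an adult basal mean of 5.31, this probe passed the low-signal filter only through the fetal arrays. Neither probe was called (Holm-adjusted p = 1 for both by limma), although the second passed in the higher direction with Benjamini-Hochberg adjustment (adjusted p = 0.0040), so no direction is given for the gene.

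Kcnma1 and Kcnmb1 encode the pore-forming alpha subunit and the beta1 subunit of the BK channel. The beta1 subunit is the smooth muscle form and raises the calcium sensitivity of the channel. Kcnmb1 was at 8.66, 8.52 and 8.52 on the adult basal arrays and at 5.49, 5.84 and 5.44 on the fetal arrays. All arrays were well above background and the groups were well separated. The means were 8.57 ± 0.08 (SD, n = 3) and 5.59 ± 0.22 (SD, n = 3), a log2 difference of -2.97 (SE 0.13, Holm-adjusted p = 0.0014 by limma), or 7.86-fold more signal in adult basal cells. After a normexp background correction the log2 difference was -1.99, and the probe was still called.

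For Kcnma1 the answer depended on the probe. The brightest, A_55_P2071656, was at 8.44, 8.75 and 8.28 on the adult basal arrays and at 8.60, 8.45 and 8.43 on the fetal arrays. The groups overlapped, and the log2 difference of 0.00 had a 95% confidence interval from -0.33 to 0.34. Probe A_55_P2378486, designed on a different transcript record, was at 6.98, 7.27 and 7.34 on the adult basal arrays but at 3.77, 4.33 and 3.86 on the fetal arrays, of which 2 were well above background. This probe was called, with a log2 difference of -3.21 (SE 0.18, Holm-adjusted p = 0.0054 by limma). Without adult basal replicate 3, fetal replicate 1 or fetal replicate 3 its adjusted p was 0.057, 0.073 and 0.077. It was 0.055 without the low-signal filter, and after the normexp correction the probe did not pass that filter. The third probe, A_51_P187352, did not pass the filter. It was at 5.41, 2.79 and 5.28 on the adult basal arrays and at 1.88, 7.29 and 1.67 on the fetal arrays, so that 1 fetal array stood far above the rest. Kcnma1 was thus called lower in fetal cells by 1 probe and not by its brightest, and which transcripts each probe binds was not tested. With a fetal mean of 3.99, the called probe, A_55_P2378486, passed the low-signal filter only through the adult basal arrays.

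**Figure D2:**
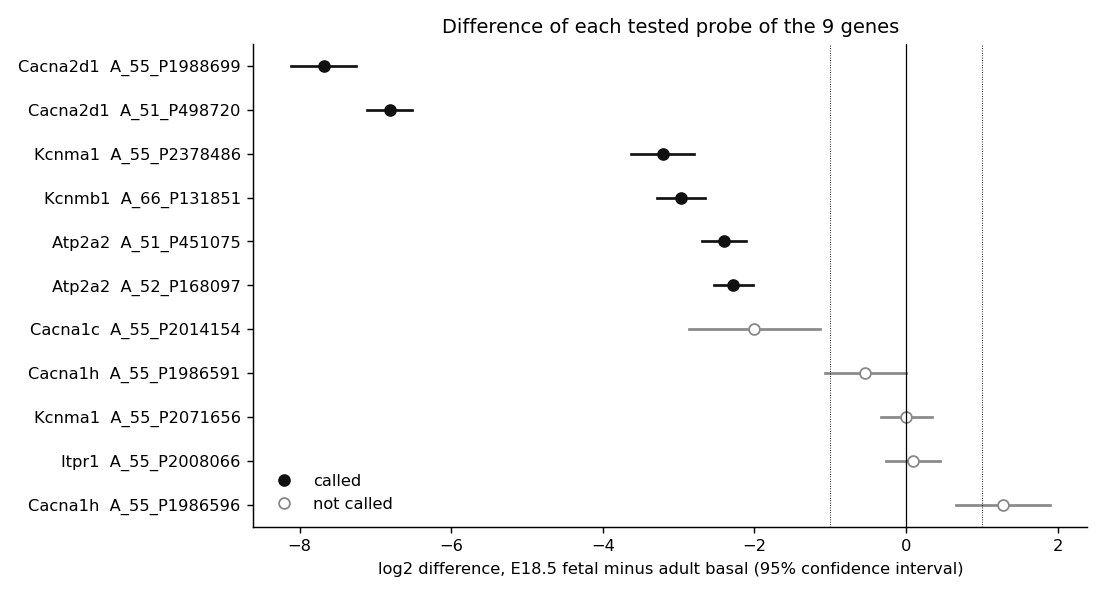
Log2 difference, E18.5 fetal minus adult basal, of the 11 tested probes of 7 genes (horizontal axis), with 95% confidence intervals from limma's fit as bars; filled points were called, open points were not, and dotted lines mark a difference of 1 in either direction. The 6 called probes lie between -7.68 and -2.28, and the probes of Kcnma1 and of Cacna1h fall on both sides of a threshold or of 0.

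Of the genes of the intracellular store, Atp2a2 was called and Itpr1 was not. Itpr1 encodes the type 1 inositol trisphosphate receptor, the channel through which hormone signals release stored calcium. It was at 11.47, 11.36 and 11.77 on the adult basal arrays and at 11.67, 11.80 and 11.42 on the fetal arrays. The groups overlapped, and with a log2 difference of 0.10 the 95% confidence interval, from -0.26 to 0.45, left out a change of 2-fold in either direction at this number of arrays.

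Atp2a2 encodes SERCA2, the pump that refills the store. Probe A_51_P451075 was at 12.31, 12.53 and 12.69 on the adult basal arrays and at 10.08, 10.19 and 10.05 on the fetal arrays. Probe A_52_P168097 was at 11.76, 11.86 and 12.00 on the adult basal arrays and at 9.64, 9.50 and 9.65 on the fetal arrays. Every fetal array was lower than every adult basal array for both probes, and their log2 differences were alike, at -2.40 (SE 0.13, Holm-adjusted p = 0.0038 by limma) and -2.28 (SE 0.11, Holm-adjusted p = 0.0020). In linear terms adult basal cells had 5.29-fold and 4.85-fold more signal. The call of the brighter probe was lost when any fetal array was left out, with adjusted p of 0.089, 0.058 and 0.067 without replicates 1, 2 and 3, whereas the other probe was called in each of those fits.

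Pln encodes phospholamban, which inhibits SERCA2 in heart and some smooth muscle, and Trpc6 encodes a receptor-operated cation channel. The Pln probe, A_52_P22324, was at 1.72, 5.14 and 2.11 on the adult basal arrays and at 3.81, 2.05 and 1.98 on the fetal arrays, and it was well above background on 1 array of each population. Trpc6 (A_55_P1966644) was at 3.37, 1.69 and 1.63 on the adult basal arrays and at 1.84, 1.61 and 1.62 on the fetal arrays, none of them well above background. Neither gene has a measured difference. In what follows, signal near background means that a probe was not well above background by the scanner software's own flag.

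Each population lay on both slides, but unevenly. Adult basal replicates 1 and 3 and fetal replicate 1 were on the first slide. Adult basal replicate 2 and fetal replicates 2 and 3 were on the second. Each difference within a slide thus rests on a single array for 1 of the populations. Cacna2d1 (A_55_P1988699) differed by -7.45 within the first slide and by -7.81 within the second, Kcnmb1 by -3.10 and -2.87, and Atp2a2 (A_51_P451075) by -2.42 and -2.41. These differences were thus about as large within a slide as over all arrays, and a fit with a term for slide called the same 3 genes.

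The families and partners of the 9 genes were read from 8 lists with 140 genes in all, of which 105 were tested. Of the 98 tested genes other than the members, 11 (11.2%) were called lower in fetal cells and 6 (6.12%) higher, against 5.21% and 6.03% of all genes tested, and the median log2 difference was -0.19 against -0.04. The same shares of all genes stand beside the count of each list below, and no conclusion is drawn from the count of a single list. Of the 140 genes, 20 were called in all, the members included. Leaving out single arrays gave 10 to 20 calls. The count was 12 without adult basal replicate 3 or fetal replicate 1, 10 without fetal replicate 2 and 11 without fetal replicate 3. Mostly lower calls were lost. From 14 lower and 6 higher, the counts went to 7 and 5, 6 and 4, and 6 and 5 without fetal replicates 1, 2 and 3. They were 7 and 5 without adult basal replicate 3, and 8 and 6 with the replicate block. Probes called over the whole table fell too, from 2269 to 945, 968, 1060, 1333 and 1303 in the same order.

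Among voltage-gated calcium channel subunits, 2 of 17 tested genes were called, both lower in fetal cells, and the median log2 difference was -0.50. Beside Cacna2d1 this was Cacnb4, a cytoplasmic beta subunit, with a log2 difference of -3.99 (SE 0.24, Holm-adjusted p = 0.0093 by limma). The other alpha1 genes that were tested, Cacna1a, Cacna1d, Cacna1g, Cacna1i and Cacna1s, had log2 differences between -1.02 and 0.15 by their brightest probes and were not called. Of the alpha2delta family, Cacna2d2 (-0.33) and Cacna2d4 (-0.02) were not called, and Cacna2d3 stayed near background on all arrays.

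In the BK channel list another accessory subunit was called in the opposite direction. Of 6 tested genes, 1 was called lower and 2 were called higher in fetal cells, with a median log2 difference of 0.05. Kcnmb4, which encodes the beta4 subunit best known from brain, was at 5.78, 5.12 and 5.26 on the adult basal arrays and at 11.46, 11.74 and 11.85 on the fetal arrays. The fetal arrays were all far above the adult basal ones, with a log2 difference of 6.29 (SE 0.19, Holm-adjusted p = 9.8e-05 by limma), and a second probe gave 2.67 (Holm-adjusted p = 0.018). Lrrc26, which encodes an accessory protein that lets BK channels open without a calcium rise in secretory epithelia, was also higher in fetal cells (log2 difference 2.13, SE 0.15, Holm-adjusted p = 0.033). Kcnmb3 (0.05) was not called, and Kcnmb2 stayed near background on all arrays. Signal of the beta subunit genes thus differed in opposite directions, lower in fetal cells for Kcnmb1 and higher for Kcnmb4.

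Release channels and their partners had no call among 9 tested genes by the Holm rule, and with Benjamini-Hochberg adjustment 1 passed in each direction. Their median log2 difference was 0.10. The other inositol trisphosphate receptors, Itpr2 (0.36) and Itpr3 (0.36), were like Itpr1 not called. Among pumps, exchangers and SERCA regulators, Atp2a2 was the only call of 13 tested genes, and the median log2 difference was 0.11. The other SERCA genes were not called: Atp2a1 had a log2 difference of -1.30 (Holm-adjusted p = 0.13) and Atp2a3 one of 1.57 (Holm-adjusted p = 0.081).

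Of 14 tested store-operated, TRP and mechanosensitive channel genes, 2 were called lower and 1 higher in fetal cells, with a median log2 difference of -0.80. Trpv4, a channel opened by osmotic and mechanical stimuli, was lower in fetal cells (log2 difference -2.93, SE 0.10, Holm-adjusted p = 1.6e-04 by limma), as was Saraf, an inhibitor of store-operated entry (-2.04, SE 0.13). A second Trpv4 probe had a log2 difference of -2.58 and was not called. Piezo2, a mechanically gated channel, was higher (2.20, SE 0.11). Of the TRPC family, Trpc1 (-2.08, Holm-adjusted p = 0.26) and Trpc4 (-0.84, Holm-adjusted p = 1) were not called, and the signal of Trpc5 and Trpc7 was near background throughout.

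Among 12 other potassium and chloride channel genes of smooth muscle, 1 was called in each direction, and the median log2 difference was -0.26. Kcnq5, a voltage-gated potassium channel gene, was at 7.48, 7.63 and 8.06 on the adult basal arrays and near background on all 3 fetal arrays, which allows only a bound of at least 15.4-fold, from the mean of the adult basal arrays over the mean of the lowest signals among probes well above background on the fetal arrays or the probe's own signal where higher (Holm-adjusted p = 0.0048). Kcnn4, which encodes the intermediate-conductance calcium-activated potassium channel of many epithelia, was at 5.53, 5.44 and 5.72 on the adult basal arrays and at 11.90, 11.96 and 12.19 on the fetal arrays. It was higher in fetal cells by 6.45 log2 units (SE 0.13, Holm-adjusted p = 3.8e-06).

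Calcium sensors and effectors, the list with the most tested genes, had 5 calls lower and 2 higher in fetal cells of 26 tested. Over all genes tested 5.21% were called lower and 6.03% higher. The median log2 difference of the list was -0.05. The largest differences among the calls were those of Prkg1, the cGMP-dependent kinase that relaxes smooth muscle (-4.12, SE 0.13), Nfatc1, a transcription factor activated by calcineurin (-3.92, SE 0.20), Plcb4, a phospholipase C that makes inositol trisphosphate (3.60, SE 0.15), and Rcan1, a calcineurin inhibitor (3.12, SE 0.12). A second Nfatc1 probe had a log2 difference of -1.37 and was not called. Of 8 tested calcium-binding proteins of the store, Calr (-1.90, SE 0.11) and Rcn3 (-1.85, SE 0.11) were called lower and none higher, with a median log2 difference of -0.80.

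**Figure D3:**
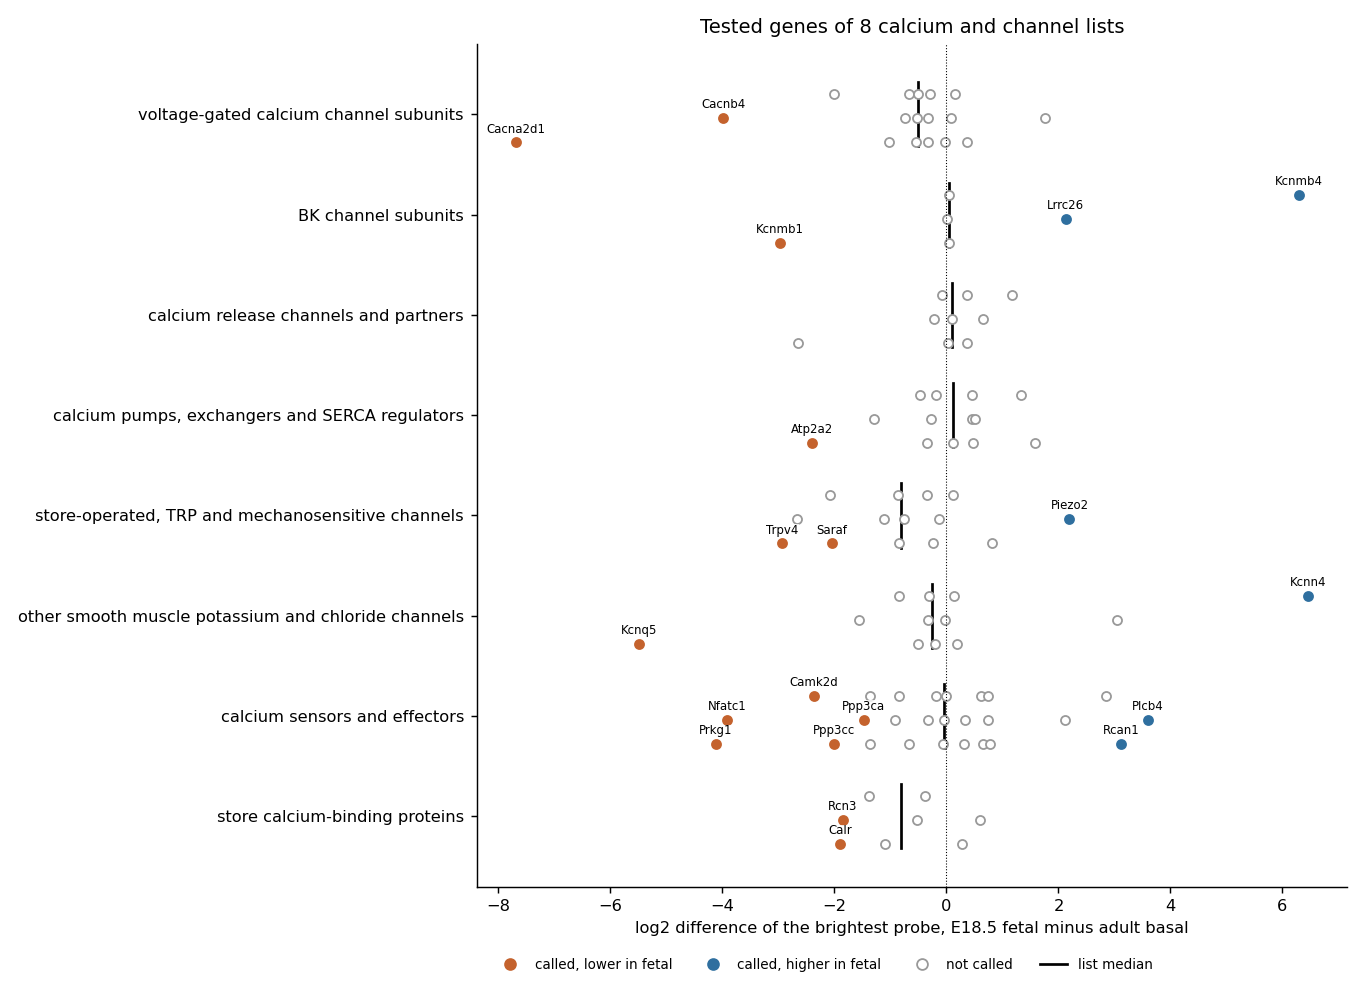
Log2 difference, E18.5 fetal minus adult basal (horizontal axis), of the brightest probe of each of the 105 tested genes in 8 lists; filled and named points were called, open points were not, vertical offsets within a list only separate points, and vertical bars are list medians, which lie between -0.80 and 0.11. Cacna2d1 is plotted lowest at -7.68, from fetal signal well above background on 1 of 3 arrays, and Kcnmb4 (6.29) and Kcnn4 (6.45) are highest. Kcnq5 is plotted at -5.49 but was near background on all 3 fetal arrays, so that only the bound in the text holds.

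The labels of the sorted cells were checked against marker genes. Of 10 basal and myoepithelial markers, 8 were called lower in fetal cells and none higher, with a median log2 difference of -4.01. They included Acta2, smooth muscle actin (-4.07), Myh11, smooth muscle myosin heavy chain (-8.63), and Oxtr, the oxytocin receptor (-3.96). Called lower as well were the basal keratins Krt5 (-3.90) and Krt17 (-3.08). Another basal keratin, Krt14 (-1.20), and the basal transcription factor Trp63 (-0.08) were not called by their brightest probes. A dimmer Trp63 probe was called lower in fetal cells (-3.06), chosen here after its value was seen. The signal summed over the tested genes of a list was, for these, 1228838, 1191006 and 1193172 on the adult basal and 94882, 86387 and 76455 on the fetal arrays, with Acta2 the brightest. Of 9 luminal markers, 5 were called higher in fetal cells and none lower (median log2 difference 2.13), among them Elf5 (7.55) and Cldn3 (4.39). With Benjamini-Hochberg adjustment 2 luminal markers passed as lower in fetal cells, Esr1, the estrogen receptor (-3.58, Holm-adjusted p = 0.25), and Krt19 (-1.22, Holm-adjusted p = 1). This Esr1 probe was well above background on only 1 of the 3 fetal arrays. Cacna2d1, Kcnmb1 and Atp2a2 were called lower in fetal cells, as were 8 of the 10 basal and myoepithelial markers. Any gene lower in fetal cells shares that direction, so it does not tie these 3 genes to the markers. The part of cell composition in the differences of these 3 genes was not tested.

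Markers of other cells that a sort could let through were also read. Of 8 tested pericyte and vascular smooth muscle markers, cells that express many of the same channels, Pdgfrb was called lower in fetal cells (-4.34) and Notch3 higher (4.70). With Benjamini-Hochberg adjustment 3 passed as lower, Rgs5 (-2.22) and Ndufa4l2 (-1.59) beside Pdgfrb, and 1 as higher. Their summed signal was 19726, 18427 and 16383 on the adult basal and 20308, 18083 and 18645 on the fetal arrays. These sums overlapped while single markers moved in opposite directions, with Notch3 at a mean log2 signal of 8.06 in adult basal and 12.76 in fetal cells and Ndufa4l2 at 12.41 and 10.82. Cox4i2, with a log2 difference of -0.18, was the brightest, Kcnj8 was near background throughout, and Des was so on the fetal arrays. Of 6 fibroblast markers only Dcn was called (-3.78), and 3 passed as lower in fetal cells with Benjamini-Hochberg adjustment. The summed signal was lower on fetal arrays (5645, 5620 and 6834) than on adult basal arrays (16336, 20203 and 25667). Dcn was the brightest on adult basal arrays (mean log2 signal 13.38, against 12.32 for Col1a2). Col1a2 was the brightest on fetal arrays (11.43, against 9.61 for Dcn). No leukocyte marker of 5 was called, 3 passed in the direction of adult basal cells with Benjamini-Hochberg adjustment, and their summed signal was 1128, 1238 and 2680 on adult basal and 372, 427 and 486 on fetal arrays, with Coro1a the brightest. None of 4 tested endothelial markers was called, and 2 passed as lower in fetal cells with Benjamini-Hochberg adjustment, Cdh5 (-2.70) and Emcn (-1.79). Their summed signal was 12651, 13616 and 11016 on adult basal and 12217, 10738 and 12481 on fetal arrays, with Kdr, whose log2 difference was -0.04, the brightest and most of the sum. Of 3 tested skeletal muscle markers Acta1 was called lower in fetal cells (-4.68) and Myod1 and Tnnt3 were not, while Myh4 was near background throughout. Acta1 was the brightest and made up most of their summed signal, which was 20916, 23211 and 20864 on adult basal and 1116, 1179 and 984 on fetal arrays. No neuron or Schwann cell marker of 6 tested was called by its brightest probe, 1 (Syt1, -1.31) passed as lower in fetal cells with Benjamini-Hochberg adjustment, a dimmer Rbfox3 probe was called lower in fetal cells (-2.64, Holm-adjusted p = 0.026, chosen after its value was seen), and the summed signal, with Sox10 the brightest, was 22122, 19960 and 19841 on adult basal and 24849, 24868 and 23626 on fetal arrays. The part of such cells in the differences of the 9 genes was not tested.

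**Figure D4:**
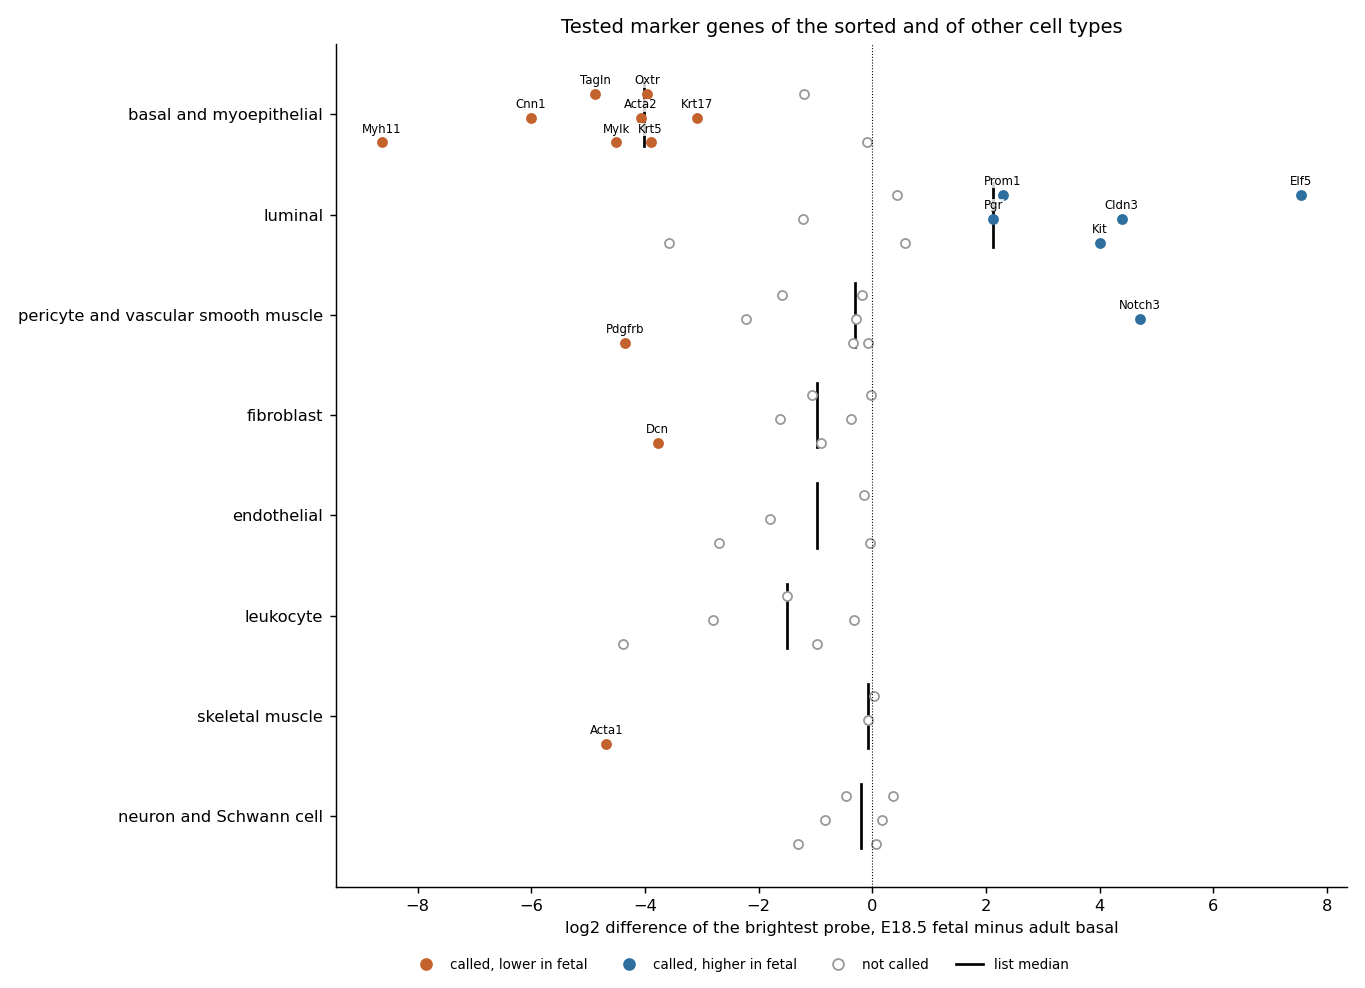
Log2 difference, E18.5 fetal minus adult basal (horizontal axis), of the brightest probe of each tested marker gene of 8 cell types; filled and named points were called, open points were not, vertical offsets within a list only separate points, and vertical bars are list medians. Basal and myoepithelial markers lie on the adult basal side (median -4.01) and luminal markers mostly on the fetal side (median 2.13).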

How the data were processed

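The 6 samples were hybridized to Agilent SurePrint G3 Mouse GE arrays, and groups and replicate numbers were taken from the labels. The authors deposited spot intensity from Feature Extraction (11.0.1.1 in the submitters' processing notes), background-subtracted within each array and not normalized between arrays, with the median spot and local background intensities beside it. They also deposited a table of log2 values, quantile normalized in GeneSpring, whose columns each followed their own array best (r from 0.971 to 0.995 for deviations from probe means).

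Processed signal was taken to log2 without control and outlier spots, averaged per probe and quantile normalized. Accessions were matched without version to a RefSeq gene table (GRCm38.p6). The scanner files name mm9, so that probes were matched by accession and not by the coordinates of that gene table. Probes below the midpoint between the lowest and middle of 3 k-means clusters (log2 signal 5.95) in both populations were removed. Differences were fitted with lmFit and eBayes (limma 3.58.1, R 4.3.3; Python 3.11.15, pandas 2.3.3, matplotlib 3.10.9). The fit was tested on simulated data. The 9 genes, the lists and the rule for named genes (the members, the 4 largest calls of a list, family members and markers) were chosen with earlier results of these data known. With 3 arrays against 3, an exact permutation test cannot go below p = 0.10, and calls depend on limma's moderated variances; the number of arrays limits the precision. No spot was saturated. The alternatives were the 75th percentile, the deposited values, a normexp correction (offset 50), the cutoff of the study's script, 2 other filters, all probes, Benjamini-Hochberg adjustment, trended robust variance, an offset of 16, each array left out, averaging over the probes of a gene, and replicate and slide blocks.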

Additional observations from a re-analysis of the deposited data

How the results depend on the processing

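The number of probes called over all genes was 2269. It was 1182 without the low-signal filter, 6130 with Benjamini-Hochberg adjustment and 1303 with the replicate block, and between 945 and 1981 with each array left out (lowest without fetal replicate 1). The 3 members called lower in fetal cells stayed at 3 except for 4 with Benjamini-Hochberg adjustment or the mean of a gene's probes, and 2 without any 1 of the fetal arrays (Atp2a2 was lost). Counted by the brightest probe, no member was called higher under any of them; the dimmer Cacna1h probe was so with Benjamini-Hochberg adjustment. Of the pathway genes, 20 were called, but 12 without the low-signal filter, 39 with Benjamini-Hochberg adjustment, 14 with the replicate block, and between 10 and 20 with each array left out.

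The log2 difference of the brightest Kcnma1 probe, which was never called, changed sign, with -0.0077 after 75th percentile scaling, -0.038 after the normexp correction, -0.034 with the slide block, and between -0.10 and 0.14 with each array left out (the cause was not tested). The probe with the call, A_55_P2378486, lost it without the low-signal filter (adjusted p = 0.055, with more probes tested). The Cacna2d1 probes kept direction and call under all 18 alternatives run on them, with log2 differences from -7.88 to -5.55 and from -7.01 to -4.34, and Kcnmb1 did so from -3.10 to -1.99, the smallest being after the normexp correction in each case. The Cacna1c probe and the dimmer Kcnma1 and Cacna1h probes did not pass the filter after that correction, nor did the Cacna1h probe with an offset of 16. Replicate numbers did not pair the arrays (correlations of deviations from group means -0.03, 0.09 and 0.05 for numbers 1, 2 and 3, and fetal replicates 1 and 3 correlated best with adult basal replicates 2 and 1), and the replicate block left the calls of the 3 members in place.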

Other observations

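Of the pathway genes other than the members, Cacna1d, Stim1 and Calm3 were not called by their brightest probe but were called by a dimmer one, and they are given here after their values were seen. Cacna1d, which encodes the L-type channel Cav1.3, had a log2 difference of -0.66 by its brightest probe, which was not called. Its dimmer probe, A_51_P251209, was at 6.74, 5.98 and 6.41 on the adult basal arrays and near background on all 3 fetal arrays, which bounds the change at 6.07-fold or more in favor of adult basal cells (Holm-adjusted p = 0.037, limma). Stim1, the calcium sensor of the endoplasmic reticulum that opens store-operated channels, was lower in fetal cells by both of its probes, with log2 differences of -2.67 (Holm-adjusted p = 0.14) and -2.53 (Holm-adjusted p = 0.0045), so that the dimmer probe had the call. Calm3, which encodes calmodulin, was higher in fetal cells by both of its probes, with log2 differences of 2.12 (Holm-adjusted p = 0.080) and 1.42 (Holm-adjusted p = 0.046).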
